A study of Homo sapiens with 24 samples.

Results

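The HOXD cluster genes were followed in 2 human neuroblastoma cell lines, SK-N-AS and IMR-32, through the microarray probes that the platform's annotation assigns to HOXD1, HOXD3, HOXD4, HOXD8, HOXD9, HOXD10, HOXD11, HOXD12 and HOXD13. Of these 9 genes, 8 had a probe, with 1 probe each, among 27942 probes that carry a gene symbol and stand for 17199 genes. HOXD9 was not analysed here. The 24 arrays fall into 4 groups of 6: SK-N-AS cells with the transgene label HOXC9, SK-N-AS cells with the label GFP (green fluorescent protein, the control), IMR-32 cells with the label HOXC9, and IMR-32 cells with the label GFP. Each group had 1 one-colour array of total RNA at 0 h and at each of 5 later hours (6, 12, 24, 48 and 96), so no hour was replicated and the hours stand in for replicates. SK-N-AS and IMR-32 are established lines, and IMR-32 carries an amplified MYCN oncogene. The labels name neither the promoter nor the vector of the transgene. They do not say whether 0 h precedes its expression, whether the hours are separate cultures or whether a line is clonal. The p-values therefore measure the spread between hours. In comparisons of the labels this is the spread of same-hour differences, pooled over both lines. Each probe thus has the same standard error (SE) in SK-N-AS and IMR-32.

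HOX genes encode homeodomain transcription factors that give cells along the body axis their positional identity, and they lie in clusters whose order along the chromosome follows the order in which they are used along the embryo. In the HOXD cluster, HOXD1 and HOXD3 lie at the anterior end and HOXD11, HOXD12 and HOXD13 at the posterior end, where they shape limbs, genitalia and the lower trunk. Large parts of a HOX cluster are silenced by Polycomb complexes in cells that do not use them, and neighbouring HOX genes are often active together. Neuroblastoma arises from the sympathetic lineage of the neural crest.

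All levels are log2 of the deposited fluorescence intensity, and every array had a median of 6.83 and a lower quartile of 3.28 on this scale. The files carry no background flags, so a value close to the array minimum of 0.41 may be background. How precise a mean is depends on the number of arrays. Differences are given in log2 units, and a probe counts as called where its limma p, adjusted by Benjamini-Hochberg over all probes, is under 0.05. The HOXC9 probe averaged 11.71 ± 0.06 in SK-N-AS with the label HOXC9 and 12.28 ± 0.17 in SK-N-AS with the label GFP (SD, n = 5 hours from 6 h). Arrays labelled HOXC9 were thus lower by 0.57 on average (limma adjusted p = 0.00773), against the label. The label and not the transgene's level therefore names this group throughout. In IMR-32 the same probe averaged 10.02 ± 0.19 in arrays labelled HOXC9 and 5.94 ± 0.26 in arrays labelled GFP (SD, n = 5), a difference of 4.08 (limma adjusted p = 1.99e-08). Whether this probe detects the transgene's RNA is not given in the sources used here. In SK-N-AS with the label HOXC9, the 6, 12 and 24 h arrays differed as a set from the 0, 48 and 96 h arrays. Correlations over probes were 0.982 to 0.986 between the 2 sets, against 0.996 to 0.997 and 0.990 to 0.994 within them. The differences of HOXD probes between labels in SK-N-AS are therefore given with and without the hours 6, 12 and 24. The other gene lists, and the line differences in arrays labelled HOXC9, are given only with these hours included. Over all probes, SK-N-AS calls fell from 11346 to 5270 at 48 and 96 h alone. Of 12 measured neuroblastoma markers, 7 lay above the array median on all SK-N-AS arrays labelled HOXC9 and 9 on all SK-N-AS arrays labelled GFP. All 12 did so on the IMR-32 arrays of both labels.

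HOXD11 and HOXD10 were higher in SK-N-AS arrays labelled HOXC9, and HOXD8, the next analysed gene along the cluster, was lower. The 250 bases before the RefSeq start of each (assembly GRCh38.p14, plus strand) are printed to show the letters next to the 3 starts. Capitals mark matches, on either strand, to the E-box CACGTG, the CCAAT box, the TATA box TATAAA, the posterior HOX core TTTATG and the HOX-PBX composite TGATNNAT. No 2 of the marked matches overlap. These motifs were chosen with the sequences in view, and a match is a description of letters, not of binding.
HOXD11, chr2:176107030-176107279: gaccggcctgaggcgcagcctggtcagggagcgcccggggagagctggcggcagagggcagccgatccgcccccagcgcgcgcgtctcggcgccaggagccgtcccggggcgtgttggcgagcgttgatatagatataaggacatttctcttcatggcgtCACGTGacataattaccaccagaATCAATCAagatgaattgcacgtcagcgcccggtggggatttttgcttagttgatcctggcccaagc
HOXD10, chr2:176116528-176116777: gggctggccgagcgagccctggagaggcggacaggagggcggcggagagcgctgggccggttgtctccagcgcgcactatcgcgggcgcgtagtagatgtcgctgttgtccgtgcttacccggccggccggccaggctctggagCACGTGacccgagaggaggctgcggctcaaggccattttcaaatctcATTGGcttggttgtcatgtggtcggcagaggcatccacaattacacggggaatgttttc
HOXD8, chr2:176129455-176129704: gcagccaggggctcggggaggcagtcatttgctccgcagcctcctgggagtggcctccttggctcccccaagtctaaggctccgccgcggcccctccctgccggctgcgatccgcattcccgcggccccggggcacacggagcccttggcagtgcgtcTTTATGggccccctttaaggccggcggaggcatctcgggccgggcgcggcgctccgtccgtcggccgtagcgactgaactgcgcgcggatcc
In windows of 300 bases (250 before and 50 after the start), CACGTG was found in 5 of the 8 HOXD promoters in the table, those of HOXD13, HOXD11, HOXD10, HOXD3 and HOXD1, and in 7.26% of 35116 RefSeq promoters of the same length. Counted from the start, the match began at -90 for HOXD11 and at -106 for HOXD10, and HOXD8 had none. CCAAT was found in 6 of the 8 windows, HOXD10 included, and in 34.6% of all. TGATNNAT was found in HOXD11 alone among the 8, and in 7.40% of all promoters. TTTATG was found in HOXD8 alone among them and in 10.6% of all, and TATAAA in HOXD13 alone and in 11.5% of all. The windows held 27 CpG dinucleotides for HOXD11, 23 for HOXD10 and 34 for HOXD8, where the median of all promoters was 14. Of the members with a CACGTG match, HOXD11 and HOXD10 were higher and HOXD1 lower in SK-N-AS arrays labelled HOXC9. HOXD13 and HOXD3 did not pass the test over 6 to 96 h. The part of these motifs in the differences was not tested.

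**Figure D1:**
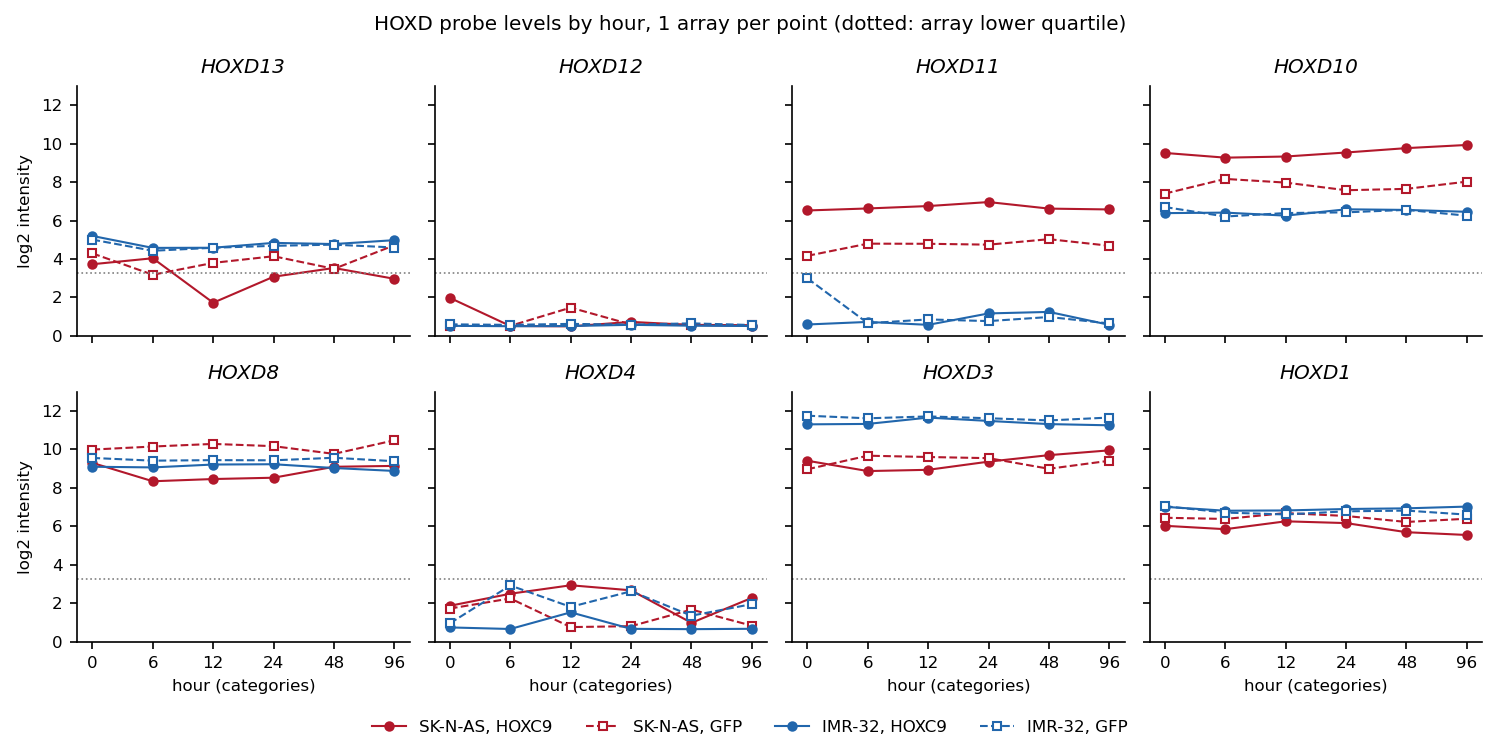
Level of each HOXD probe (log2 intensity, vertical) at 0 to 96 h (horizontal, as categories) in SK-N-AS (red) and IMR-32 (blue), with the label HOXC9 as filled circles and GFP as open squares, 1 array per point, and the array lower quartile of 3.28 dotted. HOXD11 and HOXD10 form separate red lines for the 2 labels at all 6 hours, HOXD3 separates the lines, and HOXD12 and HOXD4 stay under the lower quartile on all 24 arrays.

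In SK-N-AS, HOXD10 and HOXD11 were higher in arrays labelled HOXC9, by 3.23-fold and 3.73-fold, HOXD8 was 2.74-fold lower and HOXD1 was 1.46-fold lower. HOXD3, HOXD4, HOXD12 and HOXD13 did not pass the test. Thus 4 of 8 members were called, 2 in each direction, where 40.6% of all probes were called (20.8% higher and 19.8% lower). Calls of at least 2-fold were HOXD10 and HOXD11, where 6.81% of all probes were so called higher, and HOXD8, where 4.56% were so called lower. The median size of the difference, regardless of sign, was 0.90 over the 8 members and 0.35 over all probes.

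HOXD11, which in the mouse patterns the forearm and the kidney together with its HOXA counterpart, read 6.52, 6.63, 6.75, 6.96, 6.62 and 6.58 from 0 to 96 h in SK-N-AS arrays labelled HOXC9. In SK-N-AS arrays labelled GFP it read 4.16, 4.79, 4.79, 4.74, 5.03 and 4.69 at the same hours. The groups did not overlap, and the arrays labelled HOXC9 were higher at all 6 hours, 0 h included. Over 6 to 96 h the difference was 1.90 ± 0.12 (SE, limma adjusted p = 1.19e-06). At 48 and 96 h alone it was 1.74 (adjusted p = 0.00123). Because the GFP values are low, the size depends on the scale: with 50 units added to each intensity it was 0.99 (adjusted p = 2.05e-07).

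HOXD10 is the posterior gene next to HOXD11, is needed for lumbar motor neurons in the mouse, and is a known target of the microRNA miR-10b. It read 9.52, 9.27, 9.33, 9.54, 9.77 and 9.93 from 0 to 96 h in SK-N-AS arrays labelled HOXC9. The SK-N-AS arrays labelled GFP gave 7.40, 8.16, 7.97, 7.58, 7.65 and 8.02. The groups lay more than 1 log2 unit apart with no overlap. The difference over 6 to 96 h was 1.69 ± 0.14 (SE, limma adjusted p = 1.26e-05), and at 48 and 96 h alone it was 2.01 (adjusted p = 0.000132). Both posterior genes were thus higher in the same arrays, while HOXD12, which lies beyond HOXD11 and acts in limb patterning, was near the lowest intensity in both groups.

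HOXD8, a gene of the central part of the cluster, went the other way. It read 9.30, 8.34, 8.46, 8.53, 9.10 and 9.14 from 0 to 96 h in SK-N-AS arrays labelled HOXC9. The SK-N-AS arrays labelled GFP gave 9.99, 10.15, 10.29, 10.17, 9.77 and 10.48. The groups did not overlap, and the lowest 3 values of the arrays labelled HOXC9 were those at 6, 12 and 24 h. The difference over 6 to 96 h was -1.46 ± 0.15 (SE, limma adjusted p = 5.94e-05). It also passed at 48 and 96 h alone (adjusted p = 0.00951), and at 0, 48 and 96 h it was -0.90 (adjusted p = 0.00297).

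HOXD1, the anterior end of the cluster and a gene of pain-sensing neurons in the mouse, differed less. It read 6.03, 5.85, 6.26, 6.17, 5.69 and 5.55 from 0 to 96 h in SK-N-AS arrays labelled HOXC9, against 6.44, 6.38, 6.69, 6.54, 6.23 and 6.39 in those labelled GFP. It was lower at each of the 6 hours, although the 2 ranges overlapped slightly. The difference was -0.54 ± 0.09 (SE, limma adjusted p = 0.000901), and -0.69 at 48 and 96 h alone (adjusted p = 0.0114).

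HOXD3, linked in other cells to adhesion and vessel growth, changed sign among the hours in SK-N-AS. It read 9.41, 8.87, 8.94, 9.36, 9.70 and 9.95 from 0 to 96 h in arrays labelled HOXC9, against 8.97, 9.67, 9.61, 9.55, 8.99 and 9.41 in arrays labelled GFP. The arrays labelled HOXC9 were lower at 6, 12 and 24 h and higher at 0, 48 and 96 h. Over 6 to 96 h the difference was -0.08 ± 0.21 (SE, limma adjusted p = 0.795, 95% interval -0.54 to 0.38). At 48 and 96 h alone it was 0.63 (adjusted p = 0.0117), and at 0, 48 and 96 h it was 0.56 (adjusted p = 0.00375). With array weights it was called in the opposite direction (-0.49, adjusted p = 0.0107). The hours 6, 12 and 24 are those whose arrays differed as a set, and their part in the change of sign was not tested.

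HOXD13, the most posterior gene, mutated in human synpolydactyly, varied widely in SK-N-AS. It read 3.72, 4.04, 1.72, 3.07, 3.53 and 2.97 in arrays labelled HOXC9 and 4.29, 3.18, 3.79, 4.14, 3.49 and 4.71 in arrays labelled GFP, with overlap. The difference of -0.80 ± 0.35 (SE) did not pass the test (limma adjusted p = 0.0981, 95% interval -1.58 to -0.01). Leaving out 1 hour at a time gave -1.21 without 6 h (adjusted p = 0.0208) to -0.48 without 12 h (adjusted p = 0.363), and -0.56 without 96 h (adjusted p = 0.301). At 48 and 96 h alone it was -0.85 (adjusted p = 0.160). HOXD4, a gene of the hindbrain and neck region, was under the lower quartile on all arrays. It ranged from 0.98 to 2.93 in SK-N-AS arrays labelled HOXC9 and from 0.75 to 2.24 in those labelled GFP, and its difference of 1.01 ± 0.41 (SE) did not pass (adjusted p = 0.0767, 95% interval 0.09 to 1.93). It passed without 48 h (1.43, adjusted p = 0.0175) and with array weights (1.49, adjusted p = 0.00955), and was 0.38 (adjusted p = 0.737) at 48 and 96 h alone. Leaving out 1 hour at a time gave 0.72 to 1.43. HOXD12 ranged from 0.49 to 1.97 and from 0.52 to 1.47 in the same groups, with a difference of -0.17 ± 0.14 (SE, adjusted p = 0.354), and of -0.01 (adjusted p = 0.946) at 48 and 96 h alone.

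In IMR-32, where the HOXC9 probe was higher in arrays labelled HOXC9, the bright HOXD probes differed little between labels. HOXD4, at levels near background, was the only member of 8 called, and it was lower. Of all probes 23.2% were called (11.2% higher and 12% lower). Calls of at least 2-fold were 4.72% of all probes higher, with no member, and 2.57% lower, with HOXD4. The median size of the difference was 0.17 over the members and 0.25 over all probes.

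HOXD4 read 0.74, 0.66, 1.52, 0.66, 0.65 and 0.67 from 0 to 96 h in IMR-32 arrays labelled HOXC9, against 0.95, 2.92, 1.81, 2.62, 1.35 and 1.95 in those labelled GFP. The arrays labelled HOXC9 were lower at each hour, with overlap between the groups. The difference of -1.30 ± 0.41 (SE) had a limma adjusted p of 0.0469. The call was lost with 16 units added to the intensities (difference -0.21, adjusted p = 0.0943), and adjusted p-values without the 6, 24 or 96 h arrays were 0.174, 0.150 and 0.108. All these values lie where the arrays hold no information on background.

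HOXD8 read 9.10, 9.06, 9.21, 9.23, 9.03 and 8.88 from 0 to 96 h in IMR-32 arrays labelled HOXC9, against 9.56, 9.42, 9.44, 9.43, 9.57 and 9.39 in those labelled GFP. The groups did not overlap and the arrays labelled HOXC9 were lower at all 6 hours, but the difference was small. It was -0.36 ± 0.15 (SE) and did not pass in the fit of both lines (limma adjusted p = 0.117, 95% interval -0.71 to -0.02). It passed in the IMR-32 arrays fitted alone (adjusted p = 0.0135).

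HOXD3 was bright in IMR-32, from 11.26 to 11.66 with a median of 11.32 in arrays labelled HOXC9 and from 11.51 to 11.76 with a median of 11.64 in those labelled GFP. It was lower at all 6 hours, by -0.06 to -0.45, and the difference of -0.22 ± 0.21 (SE) did not pass (limma adjusted p = 0.487, 95% interval -0.67 to 0.24). In the IMR-32 arrays fitted alone it passed (adjusted p = 0.0492). HOXD10 ranged from 6.25 to 6.58 in IMR-32 arrays labelled HOXC9 and from 6.21 to 6.70 in those labelled GFP. Its difference was 0.09 ± 0.14 (SE, adjusted p = 0.711, 95% interval -0.23 to 0.40), an interval that lies below the SK-N-AS estimate of 1.69.

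HOXD11 was near the lowest intensity in IMR-32. It read 0.59, 0.72, 0.57, 1.16, 1.24 and 0.57 in arrays labelled HOXC9, against 2.99, 0.66, 0.85, 0.76, 0.98 and 0.64 in those labelled GFP. The GFP array at 0 h was the only one above 1.24, and it lay outside the tested hours. From 6 h the difference was 0.07 ± 0.12 (SE, limma adjusted p = 0.685). HOXD1 ranged from 6.81 to 7.03 in IMR-32 arrays labelled HOXC9 and from 6.61 to 7.04 in those labelled GFP (difference 0.19 ± 0.09, SE, adjusted p = 0.140). HOXD13 ranged from 4.57 to 5.20 and from 4.42 to 5.01 in the same groups (difference 0.14 ± 0.35, SE, adjusted p = 0.811). Its SE is shared with SK-N-AS, and its IMR-32 differences from 6 h ran from 0.0004 to 0.38. HOXD12 stayed between 0.50 and 0.57 in arrays labelled HOXC9 and between 0.56 and 0.65 in those labelled GFP (difference -0.07 ± 0.14, SE, adjusted p = 0.753).

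**Figure D2:**
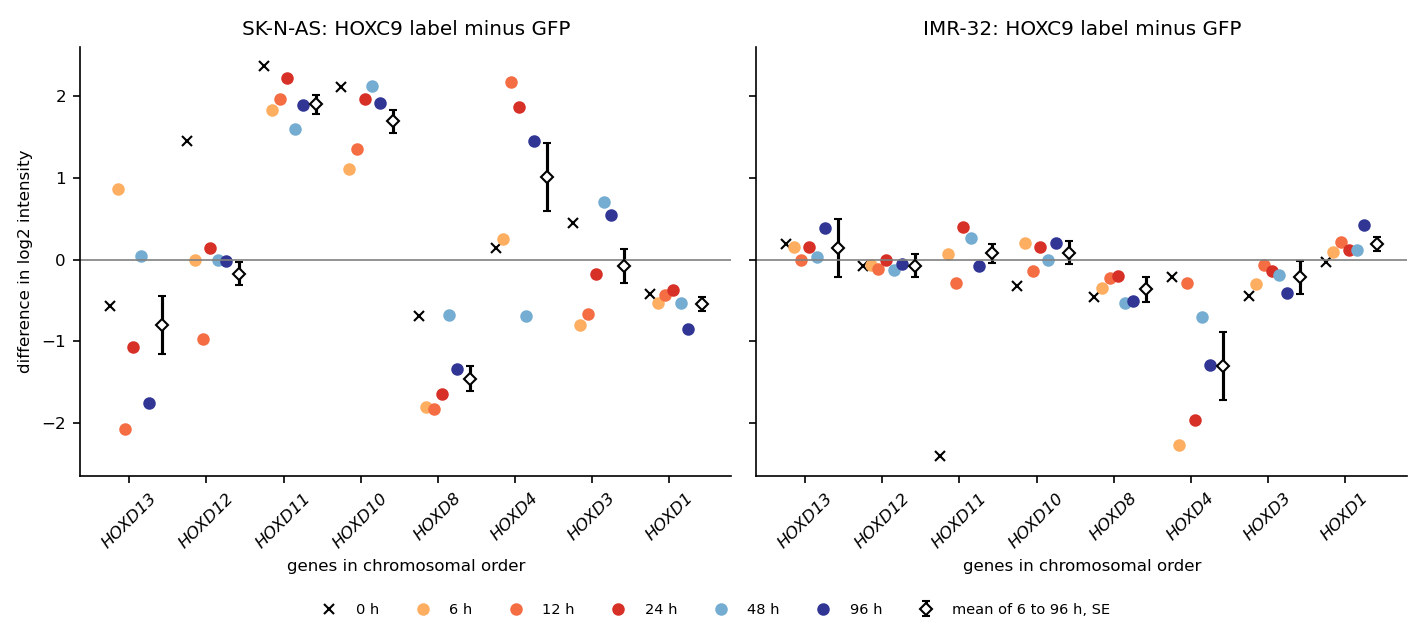
Difference of each HOXD probe between the label HOXC9 and GFP (log2 intensity, vertical) at each hour (coloured points, with 0 h as a cross) and its mean over 6 to 96 h with SE (diamond), genes in chromosomal order, SK-N-AS on the left and IMR-32 on the right. In SK-N-AS the HOXD11 and HOXD10 points lie between 1.11 and 2.36 and the HOXD8 points between -1.83 and -0.67, while in IMR-32 the points other than HOXD4 and HOXD11 lie between -0.53 and 0.42.

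The difference between labels was itself compared between the lines, as SK-N-AS minus IMR-32. It differed for 5 of 8 members, 3 higher and 2 lower, where 38.9% of all probes were called (20.6% higher and 18.3% lower). At least 2-fold were HOXD11, HOXD10 and HOXD4 (10.1% of all probes higher) and HOXD8 (9.12% lower). HOXD11 differed by 1.82 ± 0.16 (SE, limma adjusted p = 2.02e-05) and HOXD10 by 1.61 ± 0.20 (adjusted p = 0.000202). HOXD8 differed by -1.09 ± 0.22 (adjusted p = 0.00334) and HOXD1 by -0.73 ± 0.12 (adjusted p = 0.00122). HOXD4 differed by 2.31 ± 0.59 (adjusted p = 0.0116), at levels near background, and without the 24 h arrays it did not pass (1.93, adjusted p = 0.0660). With 16 and 50 units added its difference was 0.40 and 0.15, no longer 2-fold. With SK-N-AS at 48 and 96 h alone, HOXD11 (1.67, adjusted p = 0.00207), HOXD10 (1.93, adjusted p = 0.000253) and HOXD1 (-0.88, adjusted p = 0.00631) still passed. HOXD8 (-0.64, adjusted p = 0.0603) and HOXD4 (1.68, adjusted p = 0.137) then did not, and HOXD3 passed at 0.84 (adjusted p = 0.00534). The HOXC9 probe differed between labels in opposite directions in the 2 lines, and whether it detects the transgene's RNA is not given. These are therefore differences between labels, and the transgene's levels are not known.

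The SK-N-AS differences were already present at 0 h. There HOXD11 was 2.36 and HOXD10 2.12 higher in the array labelled HOXC9 than in the array labelled GFP, and HOXD8 was 0.69 and HOXD1 0.42 lower, by single arrays and with no test. After the 0 h difference was subtracted, no member was called in SK-N-AS: HOXD11 stood at -0.46 (limma adjusted p = 0.559), HOXD10 at -0.42 (0.640), HOXD8 at -0.76 (0.523) and HOXD1 at -0.12 (0.840). Of all 27942 probes, this setting called 72 in SK-N-AS and 66 in IMR-32. The subtraction rests on 1 pair of arrays per line, so a lost call does not show that no difference arose after 0 h. In IMR-32 HOXD11 was then called at 2.48 (adjusted p = 0.00675), where the subtracted 0 h pair holds the GFP value of 2.99, and HOXD4 lost its call (adjusted p = 1.00). A trend of the difference over hours, fitted on log2(1 + h/6) with all 24 arrays, was called for 0 of 8 members in either line by limma. Over all probes it was called for 2 in SK-N-AS (0.00716%), both higher, and for 0 in IMR-32 (0%), with 1969 and 729 probes at an unadjusted p under 0.05. Without the 0 h arrays the trend was called for 1829 probes in SK-N-AS (884 higher and 945 lower). In SK-N-AS arrays labelled HOXC9, the hours then left run from the early arrays that differed as a set to the later ones. The part of that set difference in the 1829 calls was not tested. Among the members HOXD11 in IMR-32 alone had an unadjusted p under 0.05 (0.0221 in limma, adjusted p = 1.00), and its GFP array at 0 h was the one at 2.99.

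The lines themselves differed along the cluster. Among arrays labelled GFP, HOXD11, HOXD10 and HOXD8 were higher in SK-N-AS, and HOXD3, HOXD13 and HOXD1 were lower. These are 6 of 8 members, 3 in each direction, where 67.1% of all probes were called (37% higher and 30.1% lower). At least 2-fold were HOXD11 and HOXD10 (18.3% of all probes higher) and HOXD3 (14.9% lower). Among arrays labelled HOXC9, HOXD11, HOXD10 and HOXD4 were higher and HOXD3, HOXD13 and HOXD1 lower in SK-N-AS, again 6 of 8, where 64.3% of all probes were called (35.1% higher and 29.2% lower). At least 2-fold were HOXD11, HOXD10 and HOXD4 (19.2% of all probes higher) and HOXD3 and HOXD13 (15.7% lower). With 8 members, neither count stands far from the share of all probes.

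HOXD3 showed the clearest line difference toward IMR-32. In arrays labelled HOXC9 it averaged 9.37 ± 0.42 in SK-N-AS and 11.39 ± 0.15 in IMR-32 (SD, n = 6), and in arrays labelled GFP 9.37 ± 0.31 in SK-N-AS and 11.65 ± 0.09 in IMR-32. The lines did not overlap in either arm. The differences were -2.02 ± 0.19 (SE, limma adjusted p = 5.46e-05) and -2.28 ± 0.12 (adjusted p = 5.79e-06), so HOXD3 was 4.05-fold and 4.86-fold lower in SK-N-AS.

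HOXD10 averaged 9.56 ± 0.25 in SK-N-AS and 6.44 ± 0.12 in IMR-32 in arrays labelled HOXC9 (SD, n = 6), and 7.80 ± 0.30 in SK-N-AS and 6.42 ± 0.19 in IMR-32 in arrays labelled GFP. SK-N-AS was higher at every hour in both arms, by 3.12 ± 0.10 (SE, limma adjusted p = 1.52e-07) and by 1.38 ± 0.18 (adjusted p = 0.000399). HOXD11 was higher in SK-N-AS by 5.87 ± 0.11 (adjusted p = 1.55e-08) in arrays labelled HOXC9 and by 3.55 ± 0.41 (adjusted p = 0.000252) in arrays labelled GFP. As the IMR-32 level is near background, these sizes depend on it: with 50 units added they were 1.56 (adjusted p = 3.27e-07) and 0.53 (adjusted p = 0.000254).

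HOXD13 averaged 3.17 ± 0.82 in SK-N-AS and 4.82 ± 0.24 in IMR-32 in arrays labelled HOXC9 (SD, n = 6), a difference of -1.65 ± 0.27 (SE, limma adjusted p = 0.00123), without overlap. In that SK-N-AS group 3 of 6 arrays were under the lower quartile, and with 16 and 50 units added the difference was -0.79 and -0.39, under 2-fold. In arrays labelled GFP it averaged 3.93 ± 0.56 in SK-N-AS and 4.67 ± 0.20 in IMR-32, a difference of -0.74 ± 0.19 (SE, adjusted p = 0.0110), or -0.39 and -0.20 with these offsets. So the end gene of the cluster was lower in SK-N-AS, whereas HOXD11 and HOXD10 were higher. HOXD1 was lower in SK-N-AS by -0.99 ± 0.13 (SE, adjusted p = 0.000334) in arrays labelled HOXC9, without overlap, and by -0.32 ± 0.11 (adjusted p = 0.0320) in arrays labelled GFP, with overlap. The GFP call of HOXD1 was lost on leaving out hour 0, 6, 24 or 48 (limma adjusted p = 0.0788, 0.0743, 0.0597 and 0.0831).

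HOXD8 was higher in SK-N-AS among arrays labelled GFP (0.67 ± 0.12, SE, limma adjusted p = 0.00236) and did not pass among arrays labelled HOXC9 (-0.28 ± 0.18, adjusted p = 0.227, 95% interval -0.71 to 0.16). HOXD4 was higher in SK-N-AS by 1.39 ± 0.22 (SE, adjusted p = 0.000869) among arrays labelled HOXC9, where the IMR-32 mean of 0.81 is near the array minimum. With 16 and 50 units added this was 0.23 (adjusted p = 0.00856) and 0.086 (adjusted p = 0.0275). Among arrays labelled GFP its difference of -0.60 ± 0.34 did not pass (adjusted p = 0.166). HOXD12 did not pass in either arm (0.28 ± 0.21, adjusted p = 0.285, and 0.11 ± 0.14, adjusted p = 0.529). With 0, 48 and 96 h alone, the GFP calls of HOXD8 (0.58, adjusted p = 0.119), HOXD1 (-0.47, adjusted p = 0.0824) and HOXD13 (-0.62, adjusted p = 0.190) were lost. Those of HOXD3, HOXD10 and HOXD11 held.

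**Figure D3:**
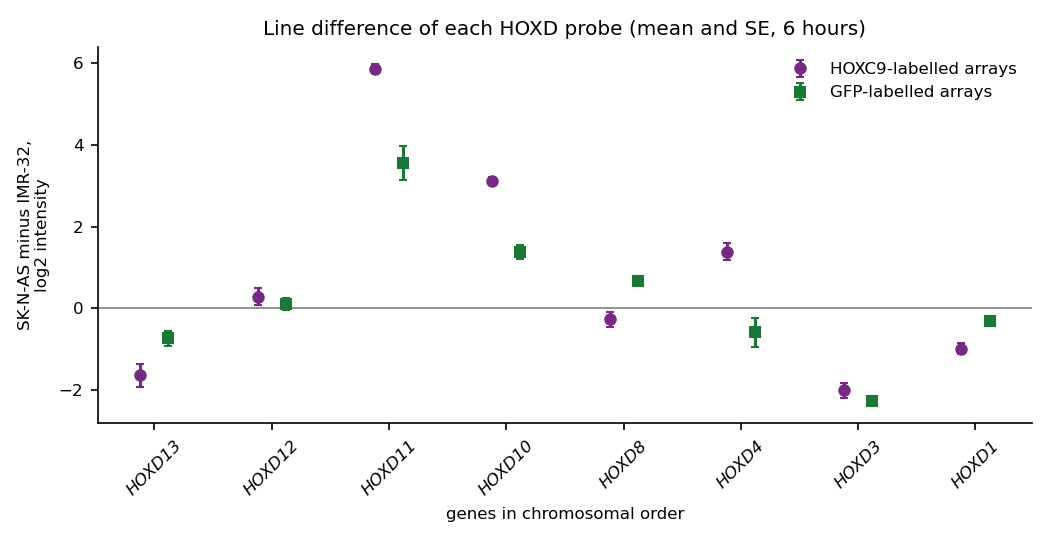
Difference of each HOXD probe between the lines (SK-N-AS minus IMR-32, log2 intensity, mean of 6 hours with SE), in arrays labelled HOXC9 (purple circles) and labelled GFP (green squares), genes in chromosomal order. HOXD11 and HOXD10 lie above 0 in both arms, at 5.87 and 3.55 and at 3.12 and 1.38, and HOXD13, HOXD3 and HOXD1 lie below 0 in both.

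Ordered by group mean over 6 hours, HOXD10 and HOXD11 were highest in SK-N-AS arrays labelled HOXC9 and next in SK-N-AS arrays labelled GFP, each step free of overlap, and the 2 IMR-32 groups overlapped. HOXD8 was highest in SK-N-AS arrays labelled GFP, then in IMR-32 arrays labelled GFP, then in IMR-32 arrays labelled HOXC9. The last of these overlapped with SK-N-AS arrays labelled HOXC9. For HOXD3 the single step free of overlap was that from IMR-32 to SK-N-AS. For HOXD1, HOXD4, HOXD12 and HOXD13 every neighbouring pair of groups overlapped.

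For members called in either line whose highest group mean lay above the 40th percentile of all probe means (6.60), the genes with the nearest profile over the 24 arrays were found by the root mean square distance between centred log2 profiles. For HOXD10 these were SPARC (0.24), a matrix protein, PLPP2 (0.25), a lipid phosphatase, and PPARG (0.28), a nuclear receptor. For HOXD8 they were EFNB1 (0.18), SLC25A13 (0.19) and C21orf58 (0.20). HOXD11 and HOXD1 meet this rule through their highest group, although HOXD11 was near the array minimum in IMR-32 and HOXD1 was below the array median in SK-N-AS. For HOXD1 the nearest genes were TBC1D22B (0.14), PPP2R5D (0.15) and TICRR (0.16), and for HOXD11, whose own spread is larger, IFIT3 (0.46), OSMR (0.52) and PRSS23 (0.56). In IMR-32 arrays labelled HOXC9 and GFP, IFIT3 averaged 1.32 and 1.36 and OSMR 0.67 and 0.69, under the array lower quartile as HOXD11 was. PRSS23 averaged 4.78 and 4.93 there. The 24 arrays share 2 lines and 4 groups and are not independent points.

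The other HOX clusters were set beside HOXD in the same comparisons. In SK-N-AS, HOXA had 1 higher and 0 lower of 10 measured genes, HOXB 0 higher and 2 lower of 10, and HOXC, HOXC9 included, 1 higher and 3 lower of 9, each gene by its brightest probe, where 40.6% of all probes were called. HOXB3 was lower by 3.10 (limma adjusted p = 1.57e-07) and HOXB2 by 0.95 (adjusted p = 0.0027) in arrays labelled HOXC9. HOXC8 was at -1.39 (adjusted p = 0.00503) by its brightest probe and at 0.46 (adjusted p = 0.0949) by its other probe. HOXA3 was higher by 0.87 (adjusted p = 0.0309). In IMR-32, where 23.2% of all probes were called, HOXC, again with HOXC9 included, had 5 higher and 0 lower of 9. Among them, HOXC8 averaged 6.05 in arrays labelled HOXC9 and 0.75, near the array minimum, in arrays labelled GFP (n = 6 each, adjusted p = 1.06e-06), so the size of its difference is uncertain. HOXA had 1 and 1 of 10, and HOXB 0 and 0 of 10 (smallest adjusted p = 0.137, with 1 at an unadjusted p under 0.05). Whether the HOXD counts differ from those of the other clusters was not tested.

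**Figure D4:**
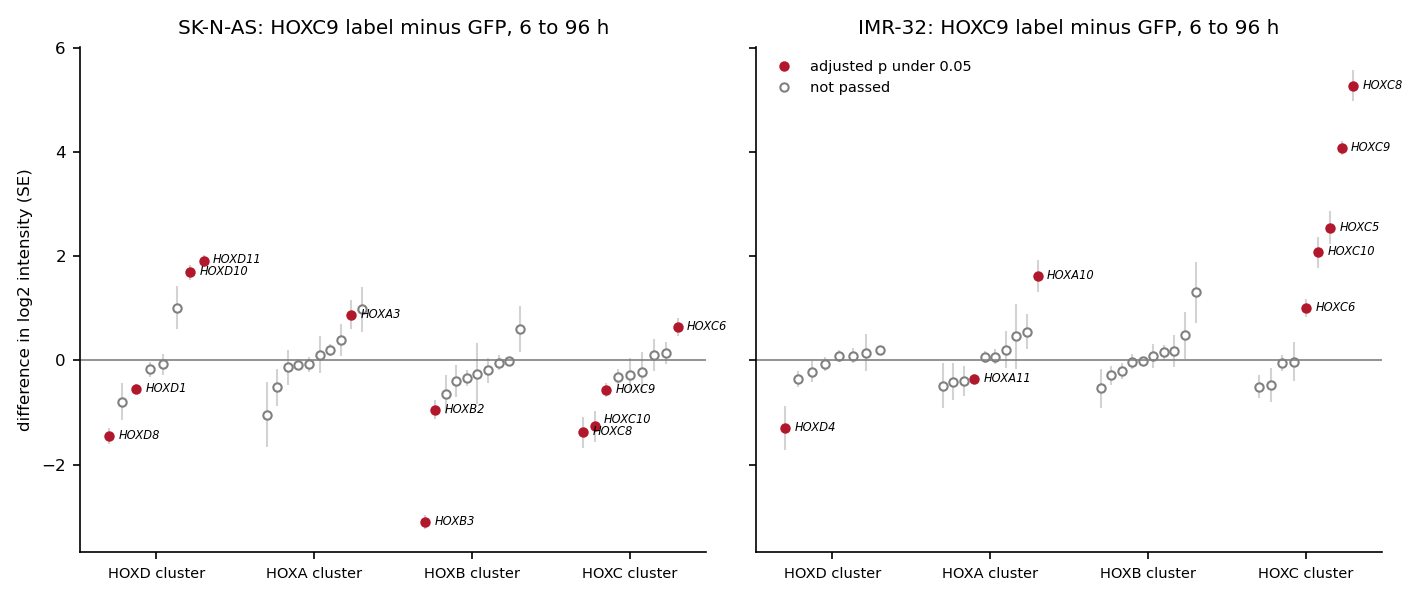
Difference between the label HOXC9 and GFP over 6 to 96 h (log2 intensity with SE, vertical) of each measured gene of the 4 HOX clusters, sorted by size within a cluster, SK-N-AS on the left and IMR-32 on the right, with called genes filled and named. In SK-N-AS 2 HOXD genes lie above 0 and 2 below among the called ones. In IMR-32 the called genes above 0 are 5 of HOXC, HOXC9 included, and HOXA10.

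Genes around the HOXD cluster on the chromosome were also counted. In SK-N-AS, 5 of 19 measured neighbours were higher and 9 lower in arrays labelled HOXC9, where 40.6% of all probes were called. The 4 with the smallest p were CDCA7 (-0.78, limma adjusted p = 0.00034), TTC30B (-0.63, adjusted p = 0.000988), CHRNA1, a muscle acetylcholine receptor subunit (-4.12, adjusted p = 0.00181), and MTX2, the mitochondrial import gene beside HOXD1 (-0.40, adjusted p = 0.00231). CHRNA1 averaged 2.94 ± 1.28 (SD) in SK-N-AS arrays labelled HOXC9, under the array lower quartile, so the size of its difference is uncertain. In IMR-32, where 23.2% of all probes were called, 2 were higher and 0 lower: PDE11A (0.99, adjusted p = 0.000139) and NFE2L2 (0.77, adjusted p = 0.00176), a regulator of the oxidative stress response, whose other probe did not pass (0.14, adjusted p = 0.678). The RefSeq annotation has the HOXD3 and HOXD4 loci overlapping, and the exon and strand of each probe are not given in the sources used here.

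Polycomb and Trithorax genes, which repress and maintain HOX clusters, had 6 higher and 11 lower of 33 in SK-N-AS and 2 higher and 3 lower of 33 in IMR-32, where 40.6% and 23.2% of all probes were called. In SK-N-AS, JARID2, an accessory subunit of Polycomb complex PRC2, was at -1.80 (limma adjusted p = 6.44e-05), PCGF1 at -1.36 (adjusted p = 6.57e-06) and RING1 at -0.91 (adjusted p = 3.04e-05), while PHC3 was at 0.82 (adjusted p = 3.83e-05). In IMR-32, PCGF5 was at 1.57 (adjusted p = 1.08e-05). Of the TALE homeodomain genes, whose products bind DNA together with HOX proteins, 1 was higher and 3 lower of 8 in SK-N-AS, and 1 higher and 2 lower in IMR-32, against the same shares of all probes. MEIS2 was higher in SK-N-AS (1.07, adjusted p = 8.65e-05) and lower in IMR-32 (-0.89, adjusted p = 0.000539), and MEIS1 was lower in SK-N-AS (-0.55, adjusted p = 0.000781) and higher in IMR-32 (1.24, adjusted p = 4.69e-06).

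Markers of cell state were also compared between the labels in each line. In SK-N-AS, where 40.6% of all probes were called, of 10 mesenchymal neuroblastoma markers, 7 were higher and 0 lower in arrays labelled HOXC9, and of 12 neuroblastoma identity markers, 4 were higher and 7 lower. In IMR-32, where 23.2% were called, 2 mesenchymal markers were higher and 4 lower, with a median difference of -0.30. There 1 identity marker was higher and 2 lower, near the share of all probes. The sums given next are in intensity units and mostly follow the brightest genes of a list. Summed over the list, mesenchymal markers ranged from 166724 to 208991 intensity units in SK-N-AS arrays labelled HOXC9 and from 160373 to 187514 in those labelled GFP, with overlap. Identity markers summed to 63214 to 91861 units in SK-N-AS arrays labelled HOXC9 and to 93247 to 133026 in those labelled GFP, without overlap. In IMR-32 mesenchymal markers summed to 60659 to 76164 units in arrays labelled HOXC9 and to 32856 to 37600 in those labelled GFP, without overlap. Identity markers summed to 89329 to 106898 and to 102845 to 129262 units in the same IMR-32 groups, with overlap. Epithelial markers summed to 172 to 192 units in IMR-32 arrays labelled HOXC9 and to 156 to 65175 in those labelled GFP, the highest from 1 array. The part of these states in the HOXD differences was not tested, and in such bulk RNA fewer cells of a type and less RNA per cell cannot be told apart.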

How the data were processed

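Total RNA was extracted with TRIzol, labelled with Cy3 and hybridised to one-colour 44K arrays, per the labels' protocols. The deposited values are linear fluorescence intensities for 44708 features, brought by the authors to a common distribution (array median 114 units, range 1.32 to 309395), and the submitters' processing notes name limma without a version. Log2 of the intensity was taken with no offset. Probes were named through the platform annotation: 27942 have 1 symbol and represent 17199 genes, with 14295 symbols current, 2937 updated and 138 kept, and 16766 features without a symbol, which may include control spots, were left out. Limma 3.58.1 in R 4.3.3 (lmFit, eBayes, two-sided, Benjamini-Hochberg over all probes, threshold 0.05) was fitted to the 20 arrays of 6 to 96 h with a block per line and hour, leaving 8 residual degrees of freedom. The residual variance of a probe was common to both lines in this fit. Lines were compared within each label on 12 arrays with hour as a block. The fits were also run on simulated data with independent normal noise and the same spread of a probe in both lines. Such a run cannot show whether the calls hold in these data. Members, lists, motifs and alternatives were chosen with earlier results of these data known. Every HOXD probe is described, and of other lists at most 4 genes per comparison with the smallest p. Each gene of another list is represented by its brightest probe. Arrays have no read depth, so their number and the missing background flags limit precision. Promoter sequences are from RefSeq (GRCh38.p14, 8 of 9 genes matched), and the files name no genome build. Python 3.11.15 drew the figures.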

Additional observations from a re-analysis of the deposited data

Results flagged for a closer look

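Effects of the transgene label that differed between SK-N-AS and IMR-32 by a test of the difference itself were those of HOXD11 (1.82), HOXD10 (1.61), HOXD4 (2.31), HOXD8 (-1.09) and HOXD1 (-0.73), each SK-N-AS minus IMR-32 on the log2 scale, in limma with 5 same-hour pairs per line. HOXD4 was under the lower quartile on all arrays.

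Of 32 sets of 6 arrays (8 probes in 4 groups), 5 held an array set apart by a gap that was large relative to the range of its set. About 1 in 20 sets would do so if the arrays were replicates from a normal distribution, but these are different hours. HOXD11 read 2.99 in the IMR-32 array labelled GFP at 0 h, and the next highest of that group was 0.98. HOXD4 read 1.52 in the IMR-32 array labelled HOXC9 at 12 h, with 0.74 next. HOXD12 read 1.97 in the SK-N-AS array labelled HOXC9 at 0 h (0.72 next) and 1.47 in the SK-N-AS array labelled GFP at 12 h (0.59 next). It read 0.57 in the IMR-32 array labelled HOXC9 at 24 h (0.52 next), where the whole set spans only 0.07. All 5 lie under the lower quartile of 3.28, and none is of HOXD1, HOXD3, HOXD8, HOXD10 or HOXD13.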

How the results depend on the processing

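Over 40 results for single HOXD probes, 759 values under 24 alternatives gave the same call in 710, lost it in 25, gained it in 18 and turned the direction in 6. Some alternatives leave the estimate of a probe unchanged and alter only its SE or adjustment, such as dropping the replicate block. Restricting the SK-N-AS hours likewise leaves the IMR-32 estimates unchanged. The tally is therefore not a count of independent checks. Apart from subtracting the 0 h difference, HOXD10 in SK-N-AS passed in all 20 alternatives (1.49 to 2.05), HOXD11 in all 19 (0.99 to 1.98) and HOXD8 in all 20 (-1.72 to -0.90). HOXD11 has fewer because it was itself removed when dim probes were left out. With the 0 h difference subtracted, HOXD10 turned to -0.42 and HOXD11 to -0.46 in SK-N-AS, and their differences between lines to -0.83 and -2.94; 0 HOXD probes were called in SK-N-AS and 1 in the difference, HOXD11 in IMR-32 gained a call (2.48) and HOXD4 there lost its own, and over all probes 72 in SK-N-AS, 66 in IMR-32 and 66 in the difference. HOXD3 in SK-N-AS turned to 0.63 with 48 and 96 h alone and to 0.56 with 0, 48 and 96 h, while array weights called it lower (-0.49, limma adjusted p = 0.0107). The causes were not tested. The 1 HOXD call in IMR-32 became 0 with offsets of 16 or 50 units, cyclic loess or dim probes left out, 2 with either restriction of the SK-N-AS hours, and 3 with array weights or that line alone. Of all 27942 probes, IMR-32 had 12153 called with array weights and 10181 with that line alone. With dim probes left out it had 3889 of 16765. With dim probes left out 3 HOXD probes could be tested, and 2 were called in SK-N-AS, 2 in the difference, 3 between lines in arrays labelled GFP and 2 in arrays labelled HOXC9. These 3 probes are too few to set against a share of all probes. Between lines in arrays labelled GFP, 3 of 8 HOXD probes were called at 0, 48 and 96 h, where 12107 of all 27942 probes were called.

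Counts over all probes moved with the features tested and the samples fitted. With 1 probe per gene they were 7258 in SK-N-AS, 4130 in IMR-32, 6985 in the difference, 11696 between lines in arrays labelled GFP and 11134 in arrays labelled HOXC9. With all features they were 10201 in IMR-32 and 28521 between lines in arrays labelled GFP. IMR-32 had 3889 with dim probes left out, 12153 with array weights (the difference 16530) and 10181 fitted alone (SK-N-AS 6765). SK-N-AS had 5270 at 48 and 96 h alone, and the lines 12107 in arrays labelled GFP at 0, 48 and 96 h. Leaving out each hour gave 7323 to 12225 in SK-N-AS, 3822 to 6585 in IMR-32, 7201 to 11511 in the difference, 0 to 1 HOXD calls in IMR-32, and 0 to 1829 probes for the SK-N-AS trend, the highest without 0 h. That trend had 2 probes, against 0 with 1 probe per gene, dim probes left out, an offset of 50 units or array weights, 1 with an offset of 16 units and 6 without the block.

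The labels share hours, not a stated pairing. Deviations of same-hour arrays correlated at -0.075 to 0.142 in SK-N-AS, over 0.1 at 1 of 6 hours. For IMR-32 this was 0.051 to 0.138, over 0.1 at 2 hours. Without the replicate block SK-N-AS had 11528 calls and IMR-32 had 6912, and among single HOXD probes in these 2 comparisons the changed call was HOXD4 in SK-N-AS, which passed (1.01, limma adjusted p = 0.0386). Low signal limits HOXD4, HOXD12 and HOXD11 in IMR-32.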
